A study of Ovis aries with 8 samples.

Results

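Genes of the blood vessel lining were followed in the livers of 8 lambs, as 3 classes. The first holds genes typical of the liver sinusoid. The second holds general vascular genes of endothelium, some of them tied to certain vessel types. The third holds signals that endothelial cells send to their neighbours together with the Notch pathway. The set was named by symbol and held 32 genes, of which 30 were found by symbol among the 27729 genes of the deposited table. They were 6 sinusoidal, 19 vascular and 5 angiocrine and Notch genes. SOX7 was not found under its symbol and is not analysed here. CLDN5 was found only through its Entrez identifier, under another symbol, and its values are given apart and enter no count. There were 4 lambs in the group labelled RES and 4 in the group labelled ADL. The labels do not spell these names out, and they give no breed, sex or age. The series title speaks of lambs with restricted feed while suckling that were fattened afterwards, and every lamb of both groups was slaughtered at 27 kg. Each library came from a piece of the liver of a separate lamb.

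The sinusoids are the capillaries of the liver. Their endothelial cells carry open pores and lack an ordinary basement membrane, so plasma reaches the hepatocytes directly, and they remove waste macromolecules from blood through scavenger receptors such as the stabilins. Like all endothelium they depend on vascular endothelial growth factor (VEGF) and angiopoietin receptors. They also release so-called angiocrine signals: in mice, Wnt and R-spondin ligands from endothelium around the central vein set the pericentral programme of hepatocytes, and bone morphogenetic proteins control hepatic hepcidin.

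Levels are given in TPM, the share of all transcripts in a library after correction for gene length, so that levels of different genes can be set side by side. The libraries held 14514084 to 15410295 assigned reads in RES lambs and 14618968 to 16182407 in ADL lambs. The label of liver held in the markers: 11 hepatocyte genes together took 150312 to 195856 TPM in RES lambs and 196520 to 211328 TPM in ADL lambs. None of the 30 genes was listed at 0 in any lamb, and together they took 406 to 454 TPM in RES lambs and 407 to 433 TPM in ADL lambs. In tissue RNA, fewer cells of a type and less RNA per cell cannot be told apart. The number of reads behind a value ranged from 3 for SOX17, in RES lambs 3 and 4, to 2180 for STAB2, and it limits the precision of the lower genes.

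CLEC4G, a C-type lectin of sinusoidal endothelium, was the most abundant of the 30 genes, with a mean of 59.0 TPM over the 8 lambs. The transforming growth factor beta co-receptor ENG followed at 49.3 TPM and the hyaluronan receptor LYVE1 at 41.5 TPM. The receptor component RAMP2 (27.6 TPM), the main VEGF receptor KDR (26.4 TPM), the scavenger receptor STAB2 (26.1 TPM) and the adherens junction cadherin CDH5 (22.5 TPM) came next. The lowest were the Notch ligand DLL4 at 1.53 TPM and the transcription factor SOX17 at 0.482 TPM. Most neighbours in this order were not separated: in 4 of 29 neighbouring pairs the more abundant gene was higher in all 8 lambs. These 4 steps lay between CLEC4G and ENG, between TEK and EMCN, between FLT1 and NOTCH1, and between DLL4 and SOX17. In the other 25 pairs at least 1 lamb had the reverse order, LYVE1 and RAMP2 among them, with LYVE1 higher in 6 of 8 lambs.

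**Figure D1:**
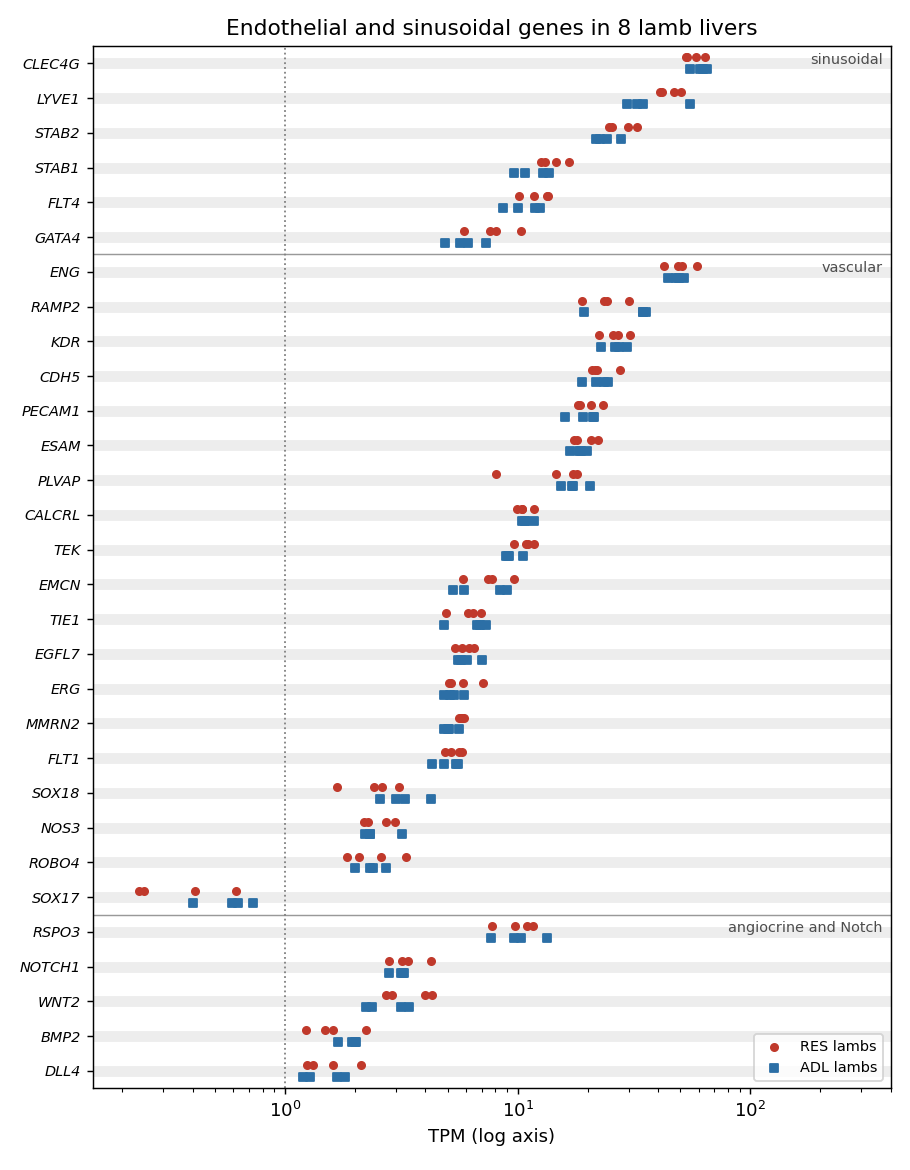
TPM of the 30 genes on a log axis, with 1 point per lamb, RES lambs as red circles above ADL lambs as blue squares, ordered within each class by mean level; the dotted line marks 1 TPM, the minimum mean for testing. The groups overlap for every gene, and SOX17 alone has its mean below the line.

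Setting RES against ADL addresses whether endothelial transcripts differed between lambs brought to a common slaughter weight. Of the 30 genes, 29 averaged 1 TPM or more over the 8 lambs and were tested, and none passed. By limma on log2(TPM + 1), 0 of 29 had an adjusted p under 0.05 and 0 of 29 had an unadjusted p under 0.05. Of all 13437 genes tested, 0% passed at the adjusted threshold, and at the unadjusted one 11.9% did, 10.4% higher and 1.5% lower in RES. By limma's voom on recovered reads, 0 of the 29 had an unadjusted p under 0.05 as well. The groups overlapped for each of the 30 genes, while 7.39% of all tested genes had groups that did not overlap, 6.61% with RES higher and 0.781% with RES lower. Of the 29 genes, 19 had a positive difference and 10 a negative one, with a median of 0.05 on the log2 scale. Over all tested genes 71.0% had a positive difference and the median was 0.09. For size-factor scaling, recovered reads were divided by gene length and by size factors in place of TPM. After it, 51.5% of all genes had a positive difference and the median over all genes was 0.01. The 29 genes then split into 11 positive and 18 negative differences, with a median of -0.04. In that scaling 1 of the 29, SOX18, had an unadjusted p under 0.05 and was lower in RES, where 7.65% of all genes did, 3.39% higher and 4.25% lower. The groups again overlapped for each of the 29 genes, against 4.62% of all genes whose groups did not.

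The intervals show how large a difference the data still allow. In 23 of the 29 genes the 95% interval of the difference lay within a 1.5-fold change either way, as it did for 74.1% of all tested genes. The 6 genes with wider bounds were GATA4, LYVE1, RAMP2, PLVAP, SOX18 and WNT2. These intervals refer to log2(TPM + 1), which understates the change of genes at a few TPM.

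**Figure D2:**
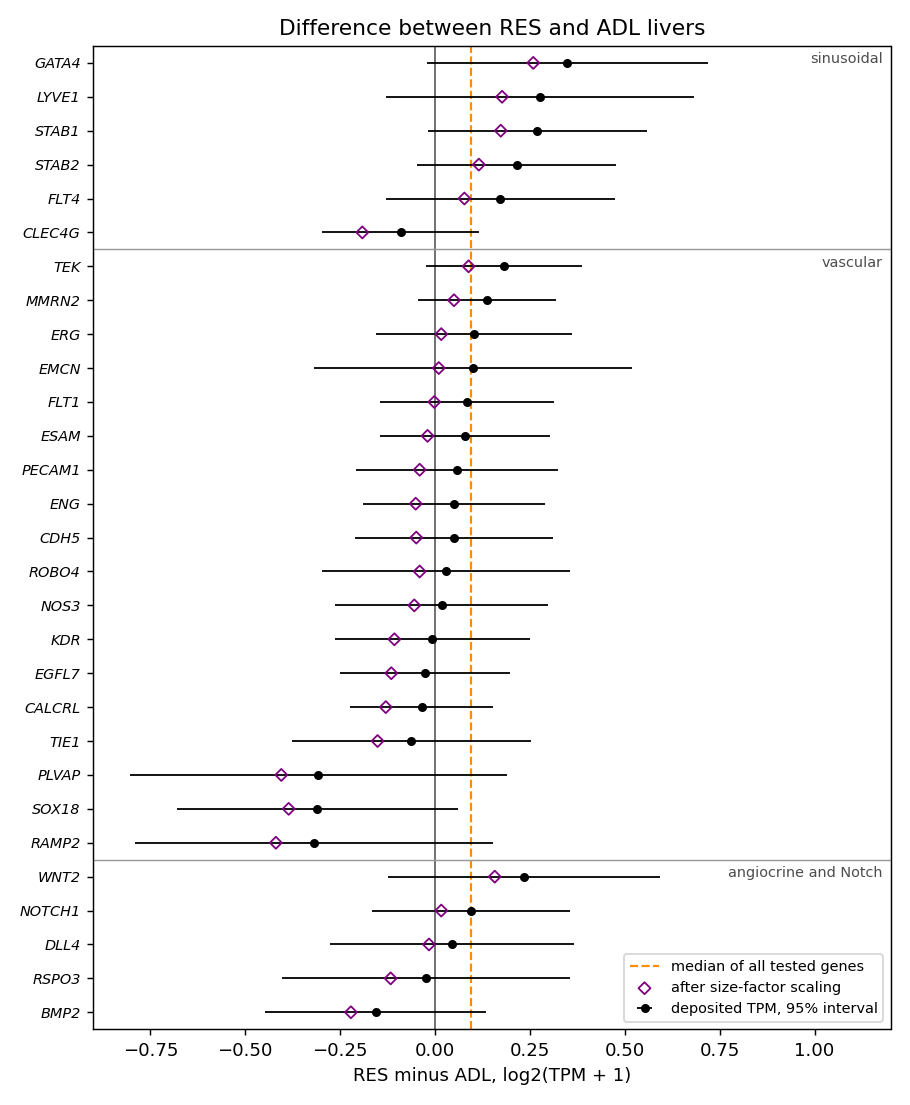
Difference RES minus ADL in log2(TPM + 1) for the 29 tested genes, with 95% limma intervals (black), the difference after size-factor scaling (open purple diamonds) and the median of all tested genes (dashed, 0.09). Every interval includes 0, and the sinusoidal genes other than CLEC4G lie to the right of the dashed line in the deposited TPM values.

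Of the 3 classes, the sinusoidal genes had the highest median difference. Of the 6 genes, 5 had a positive difference and 1, CLEC4G, a negative one, in the deposited TPM values and after size-factor scaling. The median was 0.24 in the deposited values and 0.14 scaled, against 0.09 and 0.01 over all genes, and none of the 6 passed. STAB1, a scavenger receptor also made by macrophages, had 12.6, 13.1, 14.6 and 16.7 TPM in RES lambs 1 to 4, against 13.6, 10.7, 9.67 and 12.8 TPM in ADL lambs 1 to 4. RES lambs 3 and 4 lay above every ADL lamb, and RES lambs 1 and 2 within the ADL range. The difference was 0.27 ± 0.13 (log2, SE; limma adjusted p = 0.437). STAB2, the receptor that clears hyaluronan from blood, had 25.5, 32.5, 24.6 and 29.8 TPM in RES lambs, against 27.7, 21.6, 22.5 and 24.3 TPM in ADL lambs. RES lambs 2 and 4 stood above all ADL lambs, and ADL lamb 1 stood above the other two RES lambs. The difference of STAB2 was 0.22 ± 0.12 (log2, SE; limma adjusted p = 0.471), or 0.12 after scaling.

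LYVE1, a second hyaluronan receptor, known from lymphatic vessels and sinusoids, had 47.1, 41.6, 40.8 and 50.5 TPM in RES lambs, against 32.6, 55.0, 29.6 and 34.5 TPM in ADL lambs. The highest value of all belonged to ADL lamb 2, while the other three ADL lambs lay below every RES lamb. The difference was 0.28 ± 0.18 (log2, SE; limma adjusted p = 0.525). Without ADL lamb 2 it was 0.47 with an unadjusted limma p of 0.00234, and without ADL lamb 3 it was 0.18. Over all runs with a lamb left out, the unadjusted limma p of LYVE1 ran from 0.00234 to 0.366. FLT4, the receptor for VEGFC and VEGFD, had 10.1, 13.4, 13.5 and 11.7 TPM in RES lambs, against 12.4, 8.65, 9.99 and 11.9 TPM in ADL lambs. RES lambs 2 and 3 were the highest of the 8, and RES lamb 1 lay inside the ADL range, just above ADL lamb 3. CLEC4G went the other way, with 58.5, 64.0, 53.4 and 52.9 TPM in RES lambs, against 62.7, 55.0, 60.8 and 65.1 TPM in ADL lambs. Its groups were mixed, and its difference was -0.09 ± 0.09 (log2, SE; limma adjusted p = 0.682). After size-factor scaling it was -0.19 with an unadjusted limma p of 0.0857, the smallest scaled p among the sinusoidal genes of the set.

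GATA4, a transcription factor that specifies sinusoidal endothelium in mice and is also made by stellate cells, had the smallest p of the set. It had 5.87, 7.59, 8.02 and 10.3 TPM in RES lambs, against 4.84, 7.32, 6.12 and 5.62 TPM in ADL lambs. RES lambs 2, 3 and 4 exceeded every ADL lamb, with RES lamb 2 only just above ADL lamb 2, and RES lamb 1 lay inside the ADL range. The difference was 0.35 ± 0.16 (log2, SE; limma adjusted p = 0.435), or 0.26 scaled. Its unadjusted limma p was 0.0619, against 0.014 without RES lamb 1 and 0.0316 without ADL lamb 2, and without RES lamb 4 the difference was 0.23. STAB1 likewise had an unadjusted limma p of 0.0643, against 0.0472 without RES lamb 1 and 0.0316 without ADL lamb 1. STAB2 had 0.0959, against 0.0406 without ADL lamb 1. The p-values named here for a lamb left out are those that fell under 0.05. Other runs with a lamb left out reached an unadjusted limma p of 0.164 for GATA4, 0.173 for STAB1 and 0.250 for STAB2.

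The 19 vascular genes are best taken by role. Of the 8 receptors 4 had a positive and 4 a negative difference, with a median of 0.01, and after scaling 1 was positive and 7 were negative. TEK, the receptor of the angiopoietins, had 9.65, 11.1, 10.8 and 11.8 TPM in RES lambs, against 9.21, 10.5, 9.07 and 8.90 TPM in ADL lambs. RES lambs 2, 3 and 4 exceeded every ADL lamb, and only ADL lamb 2 exceeded RES lamb 1. The difference was 0.18 ± 0.09 (log2, SE; limma adjusted p = 0.449) and 0.09 after scaling. Its unadjusted limma p of 0.0752 compares with 0.0354 without RES lamb 1 and 0.0405 without ADL lamb 2. Over all runs with a lamb left out it ran from 0.0354 to 0.166. An exact two-sided permutation test was run on each of the 30 genes, where 0.0286 is the smallest p that 4 against 4 lambs allow. The exact permutation p ran from 0.0571 to 0.971, with 0.114 for GATA4 and STAB2 and 0.143 for STAB1. TEK and MMRN2 had the smallest, 0.0571. TIE1, a relative of TEK that has no firmly known ligand, averaged 6.09 ± 0.862 TPM in RES and 6.43 ± 1.10 TPM in ADL (SD over 4 lambs, as for all means).

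KDR had 22.3, 25.7, 30.4 and 27.0 TPM in RES lambs, against 29.3, 22.9, 26.3 and 27.3 TPM in ADL lambs. Both groups averaged 26.4 TPM, and the 95% interval ran from 0.833-fold to 1.19-fold. FLT1, a second VEGF receptor that binds VEGFA and VEGFB, averaged 5.36 ± 0.395 TPM in RES and 5.01 ± 0.595 TPM in ADL. ENG, which binds the circulating ligands BMP9 and BMP10, had 42.7, 58.8, 51.0 and 48.8 TPM in RES lambs, against 51.6, 49.4, 48.0 and 44.2 TPM in ADL lambs. RES lambs held both the highest and the lowest ENG value. ROBO4, a guidance-type receptor found mainly in endothelium, averaged 2.46 ± 0.651 TPM in RES and 2.35 ± 0.288 TPM in ADL.

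RAMP2 and CALCRL together form the receptor for adrenomedullin. RAMP2 had 19.0, 24.3, 23.5 and 30.1 TPM in RES lambs, against 19.2, 34.5, 34.4 and 35.6 TPM in ADL lambs. ADL lambs 2, 3 and 4 lay above every RES lamb, and ADL lamb 1 lay at the bottom beside RES lamb 1. The difference was -0.32 ± 0.21 (log2, SE; limma adjusted p = 0.528). Without ADL lamb 1 it was -0.53 with an unadjusted limma p of 0.00586. Over all runs with a lamb left out, the unadjusted limma p of RAMP2 ran from 0.00586 to 0.352. In the authors' deposited table RAMP2 was the 1 of the 30 genes with an unadjusted p under 0.05 (p = 0.043, shrunken log2 fold change -0.33), where 5.18% of the genes with a p had one, and no adjusted p is given for it. CALCRL averaged 10.6 ± 0.760 TPM in RES and 10.9 ± 0.609 TPM in ADL and was among the least variable of the set.

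The junction proteins differed little. PECAM1, an adhesion molecule of endothelium and platelets, averaged 20.1 ± 2.36 TPM in RES and 19.3 ± 2.45 TPM in ADL. ESAM, an immunoglobulin-type adhesion molecule of tight junctions, averaged 19.5 ± 2.23 TPM in RES and 18.4 ± 1.26 TPM in ADL. CDH5, the cadherin of endothelial adherens junctions, had 27.6, 21.5, 20.9 and 21.9 TPM in RES lambs, against 21.6, 23.4, 19.0 and 24.5 TPM in ADL lambs. RES lamb 1 stood above the other seven lambs, and the rest of both groups overlapped. All 3 differences lay between 0.05 and 0.08 in the deposited values, and all 3 were negative after size-factor scaling. The tight junction gene CLDN5 had 0.860, 0, 2.06 and 3.49 TPM in RES lambs, against 2.55, 2.49, 3.05 and 1.56 TPM in ADL lambs. Its gene length in the table is only 312 bases and at most 8 reads lay on it in a lamb. The 0 reads in RES lamb 2 allow up to 1.21 TPM (3 reads, counting error only). The difference of CLDN5 was -0.58 ± 0.41 (log2, SE, limma adjusted p = 0.555). With a lamb left out its unadjusted limma p ran from 0.0299 to 0.524, so a difference stays unsettled at this depth.

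Among the transcription factors, ERG, an ETS factor that maintains endothelial identity, had 5.84, 5.07, 7.06 and 5.14 TPM in RES lambs, against 4.80, 5.32, 5.89 and 5.10 TPM in ADL lambs. RES lamb 3 was the highest, and the other RES lambs lay within the ADL range. SOX18, a factor of vessel and lymphatic development, had 2.42, 1.66, 3.09 and 2.61 TPM in RES lambs, against 2.55, 3.27, 3.01 and 4.24 TPM in ADL lambs. RES lambs 1 and 2 were below all ADL lambs, and ADL lambs 2 and 4 were above all RES lambs. Its difference was -0.31 ± 0.16 (log2, SE; limma adjusted p = 0.463), with an unadjusted p of 0.0903. After size-factor scaling it was -0.39 with an unadjusted limma p of 0.0366. Without RES lamb 3 or ADL lamb 1 the unadjusted p was 0.0456 and 0.0491, and without RES lamb 2 or ADL lamb 4 the difference was -0.19 and -0.21. The unadjusted limma p reached 0.241 with a lamb left out. These values rest on 11 to 29 reads per lamb. SOX17, a factor of arterial endothelium, was below the minimum for testing, with 0.408, 0.612, 0.235 and 0.248 TPM in RES lambs, against 0.403, 0.630, 0.724 and 0.592 TPM in ADL lambs. With 3 to 10 reads per lamb, a difference in SOX17 was not detectable.

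The remaining vascular genes make surface coat, matrix and enzyme. PLVAP, the protein of the diaphragms across endothelial pores and caveolae, had 17.2, 18.0, 8.08 and 14.6 TPM in RES lambs, against 17.2, 20.4, 15.3 and 17.2 TPM in ADL lambs. RES lamb 3 lay far below the other seven, at -0.87 from the mean log2 value of the 8 lambs, the largest deviation of any lamb for any of the 30 genes. The difference of PLVAP was -0.31 ± 0.22 (log2, SE; limma adjusted p = 0.564). Without RES lamb 3 it was -0.07. MMRN2, a matrix glycoprotein of the endothelial surface, had 5.58, 5.76, 5.87 and 5.73 TPM in RES lambs, against 5.02, 5.62, 5.08 and 4.81 TPM in ADL lambs. RES lambs 2, 3 and 4 exceeded all ADL lambs, within a narrow range, and the difference was 0.14 ± 0.08 (log2, SE; limma adjusted p = 0.494), or 0.05 after scaling. The exact two-sided permutation p of MMRN2 was 0.0571. EMCN, a sialomucin of venous and capillary endothelium, averaged 7.66 ± 1.57 TPM in RES and 7.14 ± 1.84 TPM in ADL. EGFL7, a secreted vessel factor, averaged 5.95 ± 0.496 TPM in RES and 6.09 ± 0.673 TPM in ADL. The endothelial nitric oxide synthase NOS3 had 2.19, 2.72, 2.97 and 2.28 TPM in RES lambs, against 2.32, 2.20, 2.32 and 3.17 TPM in ADL lambs. ADL lamb 4 was the highest, and the other seven lambs mixed.

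The 5 angiocrine and Notch genes had a median difference of 0.04 on the log2 scale, or -0.02 after scaling, and none passed. WNT2, a Wnt ligand of liver endothelium in mice, had 2.88, 2.71, 4.27 and 4.00 TPM in RES lambs, against 2.35, 3.15, 2.23 and 3.41 TPM in ADL lambs. RES lambs 3 and 4 exceeded all ADL lambs, and the rest overlapped. The difference was 0.23 ± 0.16 (log2, SE; limma adjusted p = 0.542), or 0.15 without RES lamb 3. RSPO3, which strengthens Wnt signals by protecting their receptors, was the most abundant of the class, with 11.0, 11.6, 9.69 and 7.74 TPM in RES lambs, against 9.65, 7.71, 13.3 and 10.3 TPM in ADL lambs. The lowest lambs of both groups lay side by side, and ADL lamb 3 was the highest. BMP2 had 2.22, 1.61, 1.48 and 1.23 TPM in RES lambs, against 1.69, 2.02, 2.00 and 1.93 TPM in ADL lambs. RES lambs 2, 3 and 4 were below every ADL lamb and RES lamb 1 was above them all. The difference of BMP2 was -0.16 ± 0.13 (log2, SE; limma adjusted p = 0.612). Without RES lamb 1 it was -0.26 and without RES lamb 4 it was -0.081.

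NOTCH1 had 3.19, 2.80, 3.37 and 4.24 TPM in RES lambs, against 3.24, 3.20, 2.78 and 3.16 TPM in ADL lambs. RES lamb 4 stood above the rest, which overlapped. Its endothelial ligand DLL4 had 1.61, 2.12, 1.25 and 1.32 TPM in RES lambs, against 1.66, 1.81, 1.19 and 1.28 TPM in ADL lambs, with both groups spread over about the same range. The differences of NOTCH1 and DLL4 were 0.10 ± 0.12 and 0.04 ± 0.14 (log2, SE; limma adjusted p = 0.734 and 0.907).

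**Figure D3:**
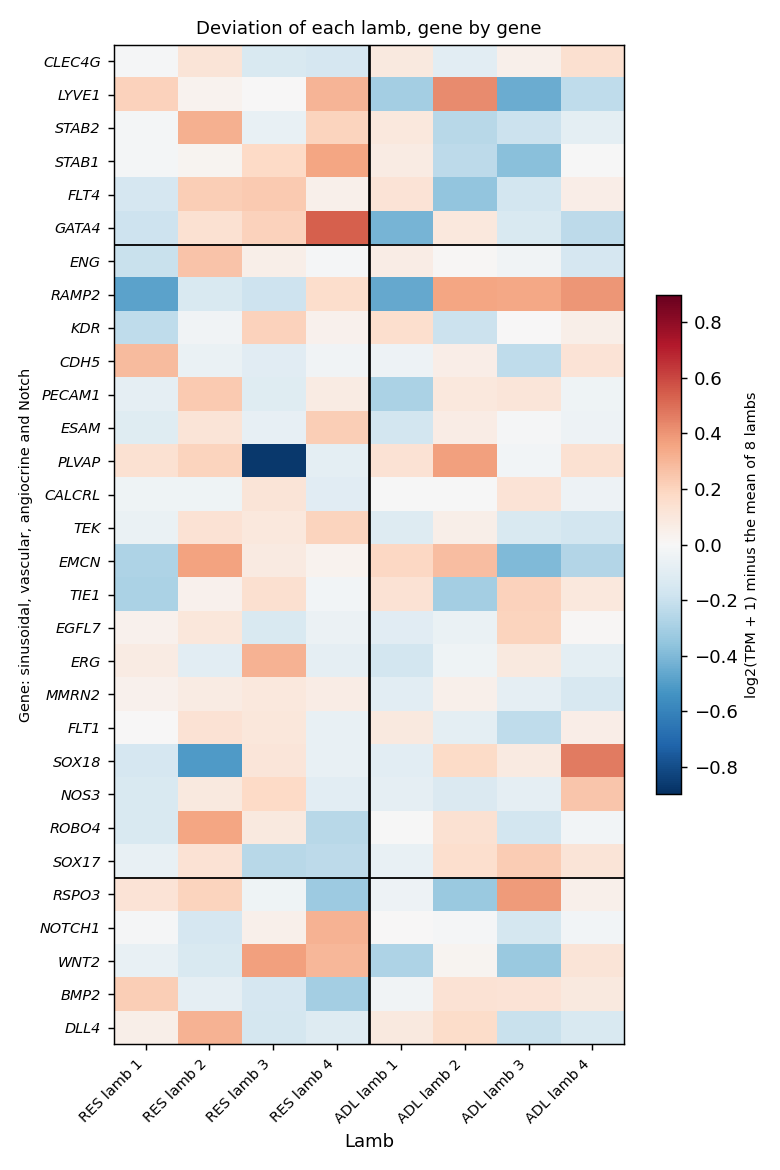
Deviation of each lamb from the mean of the 8 lambs in log2(TPM + 1), gene by gene, with RES lambs left and ADL lambs right of the line and genes grouped by class. No lamb is high or low throughout; the darkest cell is PLVAP in RES lamb 3, at -0.87.

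Taken over the genes, the lambs did not fall into high and low animals by group. A RES lamb held the highest value for 19 of the 30 genes and the lowest for 12, and an ADL lamb the highest for 11 and the lowest for 18. RES lamb 2 was the highest of the 8 for 7 genes, and ADL lamb 3 the lowest for 8 and the highest for 5. The median deviation over the 30 genes was -0.05, 0.11, 0.07 and -0.02 in RES lambs 1 to 4, against -0.04, 0.04, -0.06 and 0.01 in ADL lambs 1 to 4 (log2). RES lambs 2 and 3 were the highest by this measure, while RES lamb 1 was among the lowest. Over all tested genes the median deviation was 0.06, 0.02, 0.03 and 0.08 in RES lambs 1 to 4. In ADL lambs 1 to 4 it was -0.06, -0.02, -0.09 and -0.02, below every RES lamb. How often each lamb was highest or lowest over all genes was not counted.

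Summed levels gave a like picture. The 6 sinusoidal genes summed to 160, 172, 155 and 172 TPM in RES lambs, against 154, 158, 139 and 154 TPM in ADL lambs. RES lamb 3 fell below ADL lamb 2, so that the groups overlapped, and the means were 165 ± 8.66 TPM in RES and 151 ± 8.59 TPM in ADL. The 19 vascular genes summed to 225, 261, 240 and 249 TPM in RES lambs, against 235, 257, 247 and 250 TPM in ADL lambs. Here the ADL lambs lay within the range of the RES lambs. The sinusoidal sum over the vascular sum was 0.709, 0.659, 0.646 and 0.690 in RES lambs, against 0.653, 0.616, 0.562 and 0.617 in ADL lambs, with RES lamb 3 just below ADL lamb 1 and all other RES lambs above every ADL lamb. This ratio was chosen after the values were seen and was not tested. The sums of the 5 angiocrine and Notch genes were 18.5 to 20.9 TPM in RES lambs and 17.9 to 21.6 TPM in ADL lambs. Of the 11 hepatocyte markers, 9 had a negative difference, where 71.0% of all genes had a positive one, and none was at 0. At an unadjusted limma p under 0.05, 0 were higher and 1 lower, against 10.4% and 1.5% of all genes. After size-factor scaling 0 were higher and 2 lower, against 3.39% and 4.25%. The sums of the 11 markers did not overlap between the groups, with 177490 ± 21575 TPM in RES and 201843 ± 6671 TPM in ADL. Since TPM share a fixed total, this touches every value above; its part in the sinusoidal values was not tested.

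**Figure D4:**
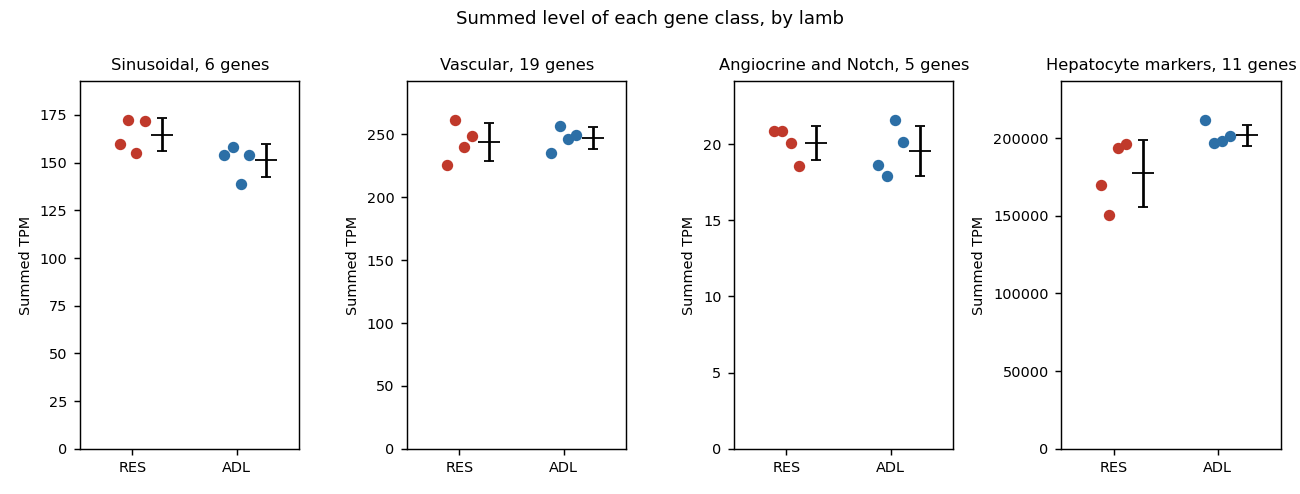
Summed TPM of the 3 endothelial classes and of 11 hepatocyte markers in each lamb, RES left and ADL right, with mean and SD as black bars (n = 4). The endothelial sums overlap between the groups, with sinusoidal means of 165 TPM in RES and 151 TPM in ADL. The hepatocyte sums, most of which a single gene makes up, do not overlap.

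Further endothelial genes were examined as separate lists. Of 12 tested sinusoidal genes outside the set, 6 had a positive and 6 a negative difference, with a median of 0.03, or -0.06 after scaling. At an unadjusted limma p under 0.05, 1 was higher and 0 were lower, against 10.4% and 1.5% of all genes. After scaling 0 were higher and 2 lower (LTBP4 and MAF), against 3.39% and 4.25%. The higher gene in the deposited values was the mannose receptor MRC1, which macrophages make too, at 42.4 ± 1.73 TPM in RES and 36.4 ± 3.01 TPM in ADL. Its adjusted limma p was 0.399. The abundant sinusoidal genes DNASE1L3, a secreted nuclease, and CLEC1B, a lectin receptor, showed near equal means: 98.6 ± 10.4 TPM in RES and 99.0 ± 6.99 TPM in ADL for DNASE1L3, and 40.6 ± 8.18 TPM in RES and 40.2 ± 2.70 TPM in ADL for CLEC1B. Of 35 further vascular genes 20 had a positive difference, against 71.0% of all genes, and 15 did after scaling, against 51.5%. At an unadjusted limma p under 0.05, 3 were higher and 0 lower, none with an adjusted p under 0.05, and after scaling 0 were higher and 1 lower (NOSTRIN). PALMD averaged 48.4 ± 3.44 TPM in RES and 36.2 ± 9.97 TPM in ADL. The BMP receptor BMPR2 averaged 19.7 ± 4.33 TPM in RES and 14.6 ± 2.19 TPM in ADL, and the adhesion molecule MCAM 4.76 ± 1.74 TPM in RES and 2.91 ± 0.817 TPM in ADL.

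Ligands of the receptors were measured in the same tissue. Of 11 tested ligands and partners 8 had a positive difference, or 6 after scaling. None had an unadjusted limma p under 0.05 in the deposited values, and after scaling 1 did, VEGFB, which was lower. VEGFA, the ligand of KDR and FLT1 that hepatocytes also make, averaged 109 ± 13.8 TPM in RES and 97.1 ± 4.06 TPM in ADL. The TEK ligand ANGPT1 averaged 1.64 ± 0.242 TPM in RES and 1.28 ± 0.165 TPM in ADL. BMP10, a ligand of ENG, averaged 4.56 ± 0.494 TPM in RES and 3.87 ± 0.316 TPM in ADL, and VEGFB 5.08 ± 0.957 TPM in RES and 6.20 ± 0.749 TPM in ADL. Among 10 other angiocrine genes, 1 was higher and 1 lower at an unadjusted limma p under 0.05. After scaling 0 were higher and 4 lower (TGFB1, IGFBP3, ANGPTL2 and WNT9B), against 3.39% and 4.25% of all genes. TGFB1, a cytokine that many liver cells make, had 11.6, 8.82, 10.4 and 7.74 TPM in RES lambs, against 13.7, 13.2, 13.4 and 13.0 TPM in ADL lambs. All RES lambs lay below all ADL lambs, as for 0.781% of all tested genes (-0.44 ± 0.12 log2, SE; limma adjusted p = 0.395). CXCL12, a chemokine of stromal and endothelial cells, averaged 104 ± 19.2 TPM in RES and 83.6 ± 1.64 TPM in ADL (limma adjusted p = 0.416).

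None of 7 Notch receptors and targets, 10 Wnt targets or 8 BMP targets had an unadjusted limma p under 0.05, and after scaling 1 BMP target, ID3, had one and was lower. The Notch targets HEYL (6.75 ± 3.01 TPM in RES, 4.41 ± 1.39 TPM in ADL) and HEY1 (12.5 ± 4.36 TPM in RES, 8.79 ± 2.31 TPM in ADL) had the smallest p of theirs. Of the 10 Wnt targets, 3 had a positive and 7 a negative difference, before and after scaling, where 71.0% and 51.5% of all genes had a positive one. Their median was -0.09, or -0.17 after scaling, against 0.09 and 0.01 over all genes. Among them AXIN2 averaged 2.41 ± 0.546 TPM in RES and 1.85 ± 0.410 TPM in ADL. The pericentral enzyme GLUL averaged 193 ± 58.3 TPM in RES and 230 ± 46.2 TPM in ADL. Hepcidin (HAMP), a BMP target, averaged 332 ± 162 TPM in RES and 215 ± 202 TPM in ADL, a difference smaller than the spread between lambs.

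**Figure D5:**
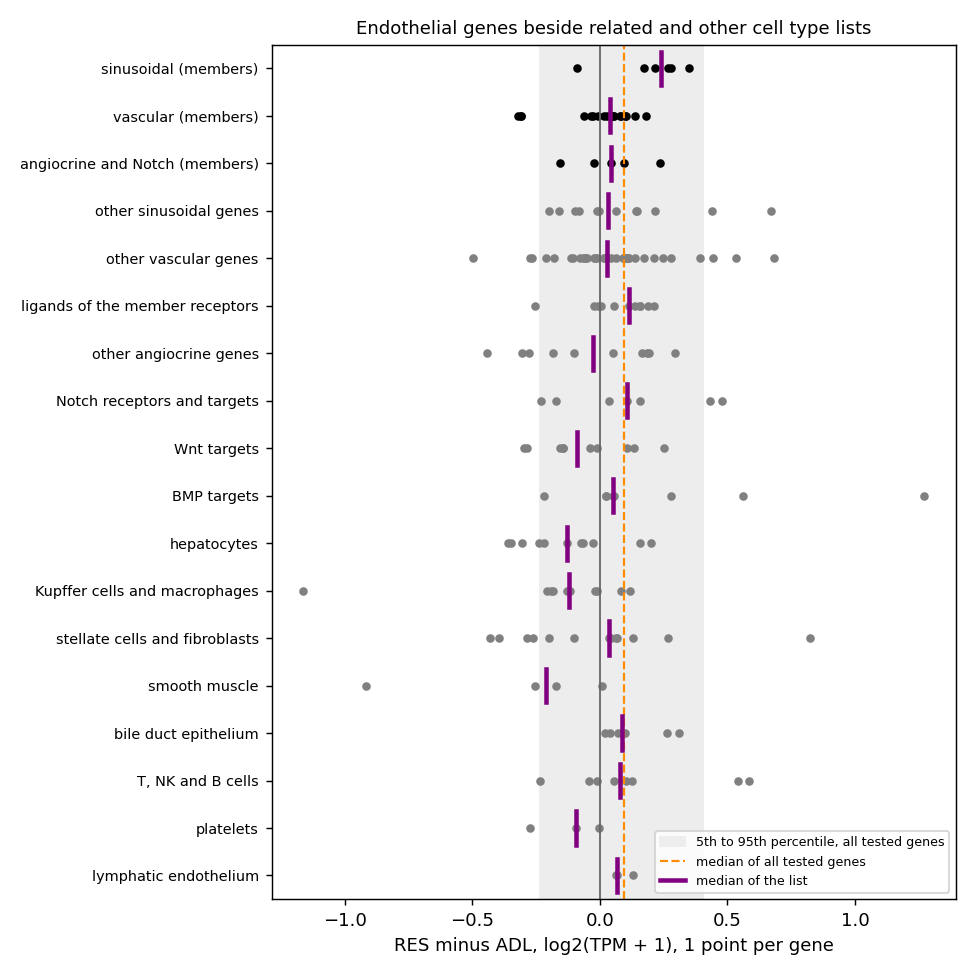
Difference RES minus ADL in log2(TPM + 1) for every tested gene of each list, with purple bars at list medians, the median of all tested genes dashed and their 5th to 95th percentile shaded. The sinusoidal genes of the set have the rightmost median, 0.24, and the other sinusoidal genes a median of 0.03.

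Several endothelial genes are also made by other cells, so markers of those cells were examined. Of 10 tested genes of Kupffer cells and macrophages, which also make STAB1, LYVE1 and MRC1, 2 had positive and 8 negative differences, and their sums were 746 to 1386 TPM in RES lambs and 891 to 1143 TPM in ADL lambs. The 13 genes of stellate cells and fibroblasts, a group that includes makers of GATA4, had 7 positive and 6 negative differences, with sums of 249 to 331 TPM in RES lambs and 282 to 404 TPM in ADL lambs. The 4 tested smooth muscle genes had 1 positive and 3 negative differences, and the 3 tested platelet genes had 3 negative ones. None of these genes had an unadjusted limma p under 0.05, and after scaling 1 stellate gene (DCN) and 1 smooth muscle gene (CNN1) had one, both lower. The lymphatic genes had 3 positive differences of 3 tested, or 1 after scaling, also with none at an unadjusted limma p under 0.05. Among them PROX1, which hepatocytes also make, averaged 39.8 ± 5.62 TPM in RES and 37.9 ± 5.24 TPM in ADL, and PDPN was nearly absent, at 0.304 ± 0.111 TPM in RES and 0.244 ± 0.0735 TPM in ADL. Of 8 tested lymphocyte genes, 5 had a positive and 3 a negative difference, or 4 and 4 after scaling. At an unadjusted limma p under 0.05, 1 was higher in RES, CD2, and 0 were lower, against 10.4% and 1.5% of all genes. After scaling 1 was higher and 0 lower, against 3.39% and 4.25%. CD2 averaged 3.11 ± 0.94 TPM in RES and 1.69 ± 0.218 TPM in ADL, with an adjusted limma p of 0.395. The 6 bile duct genes had 6 positive differences, or 4 after scaling, none at an unadjusted limma p under 0.05. Red cell genes summed to at most 0.124 TPM in RES lambs and 1.35 TPM in ADL lambs, and none was tested. The part of these cells in the endothelial values was not tested.

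The authors' deposited table gives a p for all 30 genes and an adjusted p for 12 of them, none under 0.05, where 0.231% of the genes with an adjusted p passed. The smallest adjusted p there is 0.603, for CLEC4G, which the authors' deposited table gives a shrunken log2 fold change of -0.17. The authors' deposited table has 11 positive and 19 negative fold changes among the 30 genes, from -0.33 for RAMP2 to 0.23 for GATA4. It rests on the same reads as the TPM values and scales them by size factors.

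The deposited coordinates name no genome build. In them STAB1 lies on chromosome 19 from 48328487 to 48352370 with 63 exons and STAB2 on chromosome 3 from 172130529 to 172301927 with 69 exons. LYVE1 lies on chromosome 15 from 41574532 to 41589158, CLEC4G on chromosome 5 from 14175254 to 14178566 and GATA4 on chromosome 2 from 104334440 to 104383703. RAMP2 lies on chromosome 11 from 42232102 to 42233920. A few of the genes are neighbours. ESAM and ROBO4 lie 107 kb apart on chromosome 21, from 27399225 to 27407371 and from 27514585 to 27529251. EGFL7 and NOTCH1 lie 145 kb apart on chromosome 3, from 2699148 to 2702214 and from 2847499 to 2872512. SOX18 is annotated with 1 exon on chromosome 13 from 53062011 to 53062847.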

How the data were processed

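Poly(A) RNA of 8 livers was sequenced as paired reads, per the labels' protocols. Tools in the submitters' processing notes are bcl2fastq 1.8.4 and DESeq2 1.12.4. No source used here gives the aligner, the counter, its strand setting or the build. The authors deposited TPM values with the gene length used for each, and, per the file headers, their DESeq2 mean of normalized counts (a signal), log2 fold changes, Wald statistic (a score) and p-values. The deposited direction had the sign of RES over ADL for 13419 of 13437 genes.

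TPM times length gave whole reads for 100% of values (tolerance 1e-06), and these gave back the deposited mean counts of 22183 genes. Groups came from the sample titles. Genes averaging 1 TPM or more were tested on log2(TPM + 1) by limma 3.58.1 (eBayes with a trend, R 4.3.3) with Benjamini-Hochberg adjustment and a threshold of 0.05. Counts were simulated for 4 RES and 4 ADL lambs. The share of genes recovered at an adjusted p under 0.05 was 5.65% at 1.3-fold, 31.6% at 1.5-fold and 75.0% at 2-fold. Of the unchanged genes 0.0412% were called. No pair of libraries of the same group agreed within counting noise, and pairs across the groups were not compared. Counts of reads bound precision only for counting error.

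The members and lists were chosen with earlier results of these data known. Of 194 entries in 16 other lists, 180 were found, 5 by Entrez identifier in a RefSeq table of assembly ARS-UI_Ramb_v3.0. Values in every lamb are given for the genes with the smallest p of each class (at least 2), the most abundant, those with a lamb standing apart, and further members; of other lists, up to 4 genes by p, plus DNASE1L3, CLEC1B, PDPN and PROX1, chosen after their values were seen. Alternatives were pseudocounts of 0.1 and 5, no filter, a minimum of 5 TPM, size-factor scaling, quantile normalization, voom on recovered reads, robust eBayes, each lamb left out, and the lamb number as a block.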

Additional observations from a re-analysis of the deposited data

Results flagged for a closer look

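A lamb far from the other three of its group was looked for in 178 groups of 4 (89 genes: the set with CLDN5, and the genes of other lists with the smallest p). By Dixon's ratio at its 95% critical value, 7 groups held one, or 3.93%, where chance gives about 5%. Of the endothelial genes, CDH5 in RES lamb 1 was the highest at 27.6 TPM, with the other RES lambs at 20.9 to 21.9 TPM. RAMP2 in ADL lamb 1 was the lowest at 19.2 TPM, with the others at 34.4 to 35.6 TPM. NOS3 in ADL lamb 4 was the highest at 3.17 TPM, with the others at 2.20 to 2.32 TPM. Outside the set, NOTUM was lowest in RES lamb 1 (26.2 TPM, others 40.3 to 42.0) and CCL21 highest in RES lamb 4 (26.8 TPM, others 19.6 to 20.6). VEGFA was lowest in ADL lamb 4 (91.0 TPM, others all 99.1) and RGS5 highest in ADL lamb 1 (14.9 TPM, others 2.25 to 4.25).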

How the results depend on the processing

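Of the 29 tested genes, 15 kept the sign of their difference in every alternative run and 14 changed it in some. After size-factor scaling the log2 differences of PECAM1 (-0.040), CDH5 (-0.049), FLT1 (-0.0018), ENG (-0.051), ESAM (-0.020), ROBO4 (-0.040), NOS3 (-0.055) and DLL4 (-0.016) turned negative. After quantile normalization those of PECAM1 (-0.063), CDH5 (-0.074), FLT1 (-0.018), ENG (-0.038), EMCN (-0.015), ERG (-0.00077), ESAM (-0.044), ROBO4 (-0.041), NOS3 (-0.054) and DLL4 (-0.0028) did. With each lamb left out in turn, the sign was unsettled for CDH5 (-0.039 to 0.098), KDR (-0.077 to 0.067), TIE1 (-0.18 to 0.022), PECAM1 (-0.027 to 0.10), ENG (-0.026 to 0.12), EMCN (-0.017 to 0.21), ROBO4 (-0.083 to 0.12), NOS3 (-0.039 to 0.10), DLL4 (-0.052 to 0.11), EGFL7 (-0.065 to 0.036) and RSPO3 (-0.14 to 0.10). The cause was not tested.

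The count of set genes at an unadjusted p under 0.05 was 0 higher and 0 lower, and 1 lower (SOX18) with size-factor scaling or quantile normalization. With a lamb left out it ranged from 0 to 3 higher and 0 to 2 lower, where 5.8 to 10.9% of all genes were higher and 1.15 to 2.39% lower. With the lamb number as a replicate block it was 1 higher (GATA4, unadjusted p = 0.0434) and 1 lower (RAMP2, unadjusted p = 0.0303), against 9.59% and 1.68% of all genes. The labels do not say whether equal numbers mark pairs. Deviations of same-numbered lambs correlated across genes at 0.15, -0.12, 0.05 and 0.06, against -0.14 to 0.08 for other RES and ADL lambs. Such correlations cannot settle whether lambs were paired. Over all genes limma called 0 genes, and 0 under the block; with no filter it called 1, LOC101120736, and with a lamb left out 0 to 1, RGS6 without ADL lamb 1. Depth limits SOX17, SOX18 and CLDN5 most.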

Other observations

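Ratios between related genes of the set, within a lamb, had ranges that overlapped between the groups in the ratios given here. STAB2 stood at 1.99 ± 0.357 times STAB1 in RES lambs and 2.07 ± 0.184 times in ADL lambs (mean ± SD, n = 4 each). KDR stood at 4.93 ± 0.630 times FLT1 in RES and 5.31 ± 0.610 times in ADL. TEK over TIE1 was 1.55 to 1.96 in RES and 1.24 to 2.17 in ADL. RAMP2 over CALCRL was 2.30 ± 0.535 in RES and 2.84 ± 0.727 in ADL. RSPO3 over WNT2 was 1.93 to 4.29 in RES and 2.45 to 5.99 in ADL. These ratios were chosen after the values were seen.

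The spread between lambs also differed among the genes. The residual SD on the log2 scale ran from 0.0591 for MMRN2 to 0.365 for PLVAP, with a median of 0.167 over the 29 genes and 0.181 over all tested genes. Of 2922 genes within 1.5-fold of the level of MMRN2, 99.2% had a larger SD, and of 2601 at the level of PLVAP, 9.57% did.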
